A study of Mus musculus with 6 samples.

Results

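Genes that glucocorticoid hormones or fasting are known to induce, 9 in number, were followed in the mouse small intestine after deletion of Fitm2: Fkbp5, Tsc22d3, Sgk1, Zbtb16, Klf9, Angptl4, Pdk4, Pck1 and Ddit4. They were taken by name as 9 of the 13042 genes kept on the array, each through the brightest probe set that is annotated to that gene alone. All 9 passed the filter on dim genes, an average intensity above 38.9. KO mice carried L/L alleles of Fitm2, an endoplasmic reticulum protein needed for lipid droplet formation, together with ROSA26CreERT2, a tamoxifen-activated Cre recombinase at a locus active in nearly all cell types. The labels name no Cre for the L/L mice, so the Cre itself and loss of Fitm2 cannot be told apart. L/L is not spelled out in the labels and usually denotes loxP-flanked alleles. The labels describe 100 µg tamoxifen per g body weight, injected on days 1, 2 and 3, for all mice, and do not say whether mice taken on day 2 or 3 had the later doses. The sources used here do not give age, sex, hour of collection or feeding. The groups were KO day 2 (a pool of 7 mice), L/L day 2 (6), KO day 3 (6), L/L day 3 (6), KO day 5 (7) and L/L day 5 (8). Each pool was hybridised to 1 array, 6 arrays in all, so neither genotype was replicated on any day and the spread between mice cannot be seen.

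Glucocorticoids cross the cell membrane and bind the glucocorticoid receptor, which then enters the nucleus and binds palindromic DNA elements near its target genes. In a fast, glucocorticoids, glucagon, falling insulin and free fatty acids act together: FOXO factors, CREB and the fatty acid receptor PPAR alpha turn on genes that spare glucose and burn fat. The small intestine takes part, since its epithelium makes glucocorticoids of its own and holds enzymes of gluconeogenesis. Several of the 9 genes answer to more than 1 of these signals.

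RefSeq promoter windows of assembly GRCm38.p6, from 250 bases before to 50 bases after an annotated start, were matched for 7 of the 9 genes (14 windows) and searched on both strands. The full glucocorticoid receptor palindrome, AGAACA and TGTTCT with 3 free bases between them, was found in 3 of 32851 windows of all genes (0.00913%), and 1 of these 3 belongs to Sgk1. It lies by 1 of the 6 Sgk1 starts in the table, with its first base 189 bases before the start, and the matched letters are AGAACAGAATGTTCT. The relaxed form, GNACA and TGTNC with 3 free bases between them, overlaps each full match and was found in 0.475% of all windows and in no other window of the 9 genes. The clock E-box CACGTG was found in the Fkbp5 window and in the same Sgk1 window (7.15% of all windows), and the FOXO motif GTAAACA in the Klf9 window (3.65%). The short CREB motif TGACG, present in 20.8% of all windows, was found in 4, among them Pck1, where it lies on the minus strand of the window 90 bases before the start. The full CREB motif TGACGTCA and the PPAR motif (2 AGGTCA copies with 1 free base between them) were in none of the 14 windows. A match says only that the letters are there, and elements farther from the start are outside these windows. Windows of Sgk1, Fkbp5, Klf9 and Pck1 are shown, to cover each motif found, with the matched letters in capitals.
Sgk1, chr10:21993640-21993939, plus strand: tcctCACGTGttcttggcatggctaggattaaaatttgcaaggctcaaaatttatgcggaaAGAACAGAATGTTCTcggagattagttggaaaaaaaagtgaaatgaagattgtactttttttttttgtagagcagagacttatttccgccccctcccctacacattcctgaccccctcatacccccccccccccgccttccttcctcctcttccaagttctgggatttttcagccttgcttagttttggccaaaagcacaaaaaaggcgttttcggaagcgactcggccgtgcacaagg
Fkbp5, chr17:28486100-28486399, minus strand: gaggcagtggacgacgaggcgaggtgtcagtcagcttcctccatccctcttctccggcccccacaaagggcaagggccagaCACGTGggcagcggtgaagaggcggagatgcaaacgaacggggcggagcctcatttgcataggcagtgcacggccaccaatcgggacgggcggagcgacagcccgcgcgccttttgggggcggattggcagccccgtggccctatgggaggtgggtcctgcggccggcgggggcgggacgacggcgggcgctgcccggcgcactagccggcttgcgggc
Klf9, chr19:23140976-23141275, plus strand: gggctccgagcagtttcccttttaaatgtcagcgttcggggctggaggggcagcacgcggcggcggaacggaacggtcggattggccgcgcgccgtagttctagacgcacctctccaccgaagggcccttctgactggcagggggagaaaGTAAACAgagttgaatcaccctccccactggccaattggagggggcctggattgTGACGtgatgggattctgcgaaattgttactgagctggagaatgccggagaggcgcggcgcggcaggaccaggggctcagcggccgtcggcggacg
Pck1, chr2:173152823-173153122, plus strand: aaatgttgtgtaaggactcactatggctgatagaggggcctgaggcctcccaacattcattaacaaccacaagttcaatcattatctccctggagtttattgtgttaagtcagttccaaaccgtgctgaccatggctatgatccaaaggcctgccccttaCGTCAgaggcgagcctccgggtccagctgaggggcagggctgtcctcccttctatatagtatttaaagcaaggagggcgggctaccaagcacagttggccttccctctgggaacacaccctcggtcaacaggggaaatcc

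Values are probe set intensities on a linear scale, and differences are of log2 intensity, KO minus L/L unless stated. Array medians ranged from 57.8 to 59.8. Fitm2 had intensities of 123, 127 and 120 in KO on days 2, 3 and 5 and 193, 223 and 211 in L/L, a mean difference of -0.76 ± 0.10 (SD over 3 days; limma adjusted p = 0.125). Where its probe set lies relative to the deleted part is not stated, so this is a limited check of the labels. The small intestine label was borne out by its epithelial markers: 9 of 10 enterocyte markers were kept, and their summed intensity was between 130410 and 132810 in KO and between 125610 and 132980 in L/L. In whole intestine, fewer cells of a type and less RNA per cell cannot be told apart.

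The 9 genes were all higher in KO than in L/L on days 2 and 3, Klf9 by only 0.03 and 0.02, and 4 of them were still higher on day 5. On day 2 the genotype difference had a median of 0.28 over the 9 genes, against 0.01 over all kept genes, and on day 3 it had a median of 0.41, against -0.01. On day 5 the median was -0.01, against 0.02. Of the 9, Angptl4 and Ddit4 had the largest mean differences over the 3 days and Klf9 the smallest. None of the 9 passed the limma test of the genotype difference over the 3 days after adjustment over all genes, where 0.023% of genes passed. At an unadjusted p under 0.05 there were 4 of the 9, all higher in KO (Angptl4, Ddit4, Fkbp5 and Sgk1), against 7.68% of all kept genes in that direction and 4.61% in the other. That count was 8 without day 5 and 2 with no term for day, and in both fits 0 of the 9 passed after adjustment. The share of all kept genes at that unadjusted p was not taken for these fits, so their counts have nothing to be set against.

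**Figure D1:**
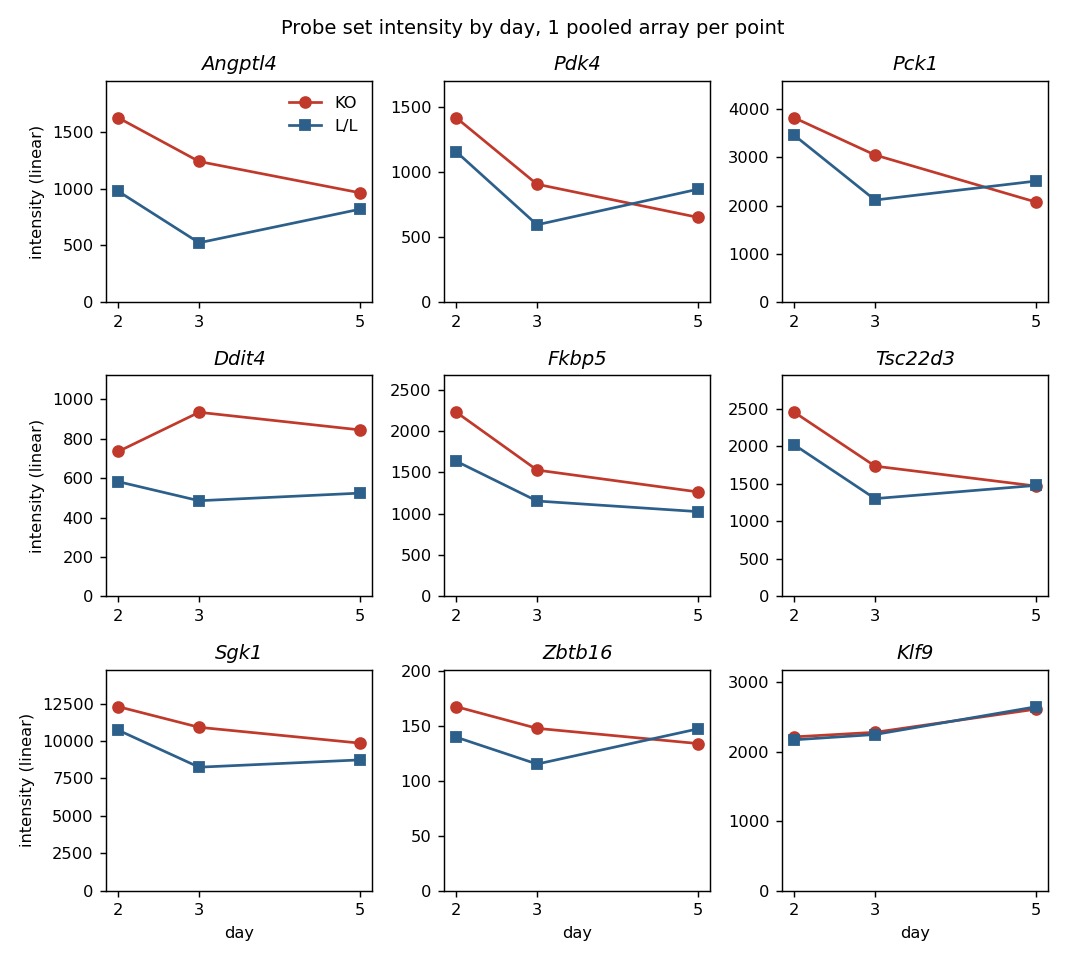
Intensity (linear scale, axis from 0) of the brightest probe set of each gene against day, with KO as circles and L/L as squares and 1 pooled array per point. KO lies above L/L on days 2 and 3 in each panel, nearly on top of it for Klf9, and the lines cross by day 5 for Pdk4, Pck1 and Zbtb16 and lie within 0.02 log2 of each other on day 5 for Tsc22d3 and Klf9.

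Fkbp5 encodes a co-chaperone that lowers the hormone affinity of the glucocorticoid receptor and is itself a receptor target. Its intensity was 2225, 1527 and 1262 in KO on days 2, 3 and 5, and 1633, 1153 and 1024 in L/L. KO was above L/L on every day while both genotypes were highest on day 2. The difference was 0.45, 0.41 and 0.30 by day, a mean of 0.38 ± 0.07 (SD, n = 3 days; 1.31-fold), with limma adjusted p = 0.335. Of the 4 genes at an unadjusted p under 0.05 for the genotype, Fkbp5 had the smallest SD over days. With no term for day its unadjusted limma p was 0.164. A second bright probe set differed by 0.33, 0.54 and 0.37.

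Tsc22d3 encodes GILZ, a leucine zipper protein that carries part of the anti-inflammatory action of glucocorticoids. Its intensity was 2456, 1737 and 1471 in KO and 2021, 1304 and 1481 in L/L. KO was above L/L on days 2 and 3, and on day 5 the 2 arrays were nearly equal. The difference was 0.28, 0.41 and -0.01, a mean of 0.23 ± 0.22 (SD, n = 3; adjusted p = 0.412). The small day 5 value is 0.02 after cyclic loess and 0.05 as the mean of all probe sets, so its sign is not settled. A second probe set showed larger values of 0.35, 0.68 and 0.17, and a dimmer one -0.16, 0.17 and -0.03.

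Sgk1 encodes a kinase that raises sodium channel and transporter activity and answers to glucocorticoids and mineralocorticoids. Its intensity was 12294, 10919 and 9859 in KO and 10722, 8255 and 8743 in L/L, with KO above L/L on each day. The difference was 0.20, 0.40 and 0.17, a mean of 0.26 ± 0.13 (SD, n = 3; 1.2-fold; adjusted p = 0.381). Sgk1 has 1 probe set here, and the array does not tell its annotated starts apart.

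Zbtb16 encodes PLZF, a zinc finger factor that glucocorticoids induce in many cell types and that also marks NKT cells and innate lymphoid precursors. Its intensity was 168, 148 and 134 in KO and 140, 115 and 148 in L/L, so that KO was above on days 2 and 3 and below on day 5. The difference was 0.26, 0.36 and -0.14, a mean of 0.16 ± 0.26 (SD, n = 3; adjusted p = 0.539). The other probe sets above the filter disagreed on day 3, at 0.01 and 1.02, and the larger value rests on an L/L intensity of 38.8, just under the filter. T, NKT and innate lymphoid markers had summed intensities of 642, 716 and 576 in KO and 663, 669 and 662 in L/L over 9 of 13 genes kept. Their part in the Zbtb16 values was not tested.

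Klf9 encodes a Krüppel-like factor that glucocorticoids and thyroid hormone induce. Its intensity was 2217, 2282 and 2616 in KO and 2174, 2250 and 2651 in L/L. The genotypes lay close together on each day, and both were highest on day 5. The difference was 0.03, 0.02 and -0.02, a mean of 0.01 ± 0.03 (SD, n = 3; SE 0.06; adjusted p = 0.948), and its sign turned when arrays were centred on the median (-0.020). Over 6 Klf9 probe sets above the filter the mean difference lay between -0.03 and 0.13. On single days they differed in sign, from -0.05 to 0.12 on day 2 and from -0.08 to 0.25 on day 3.

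Angptl4 encodes a secreted inhibitor of lipoprotein lipase that fasting, fatty acids acting through PPARs, and glucocorticoids induce. Its intensity was 1626, 1241 and 963 in KO and 976, 522 and 820 in L/L. KO was above L/L on each day, most on day 3, when L/L was at its lowest. The difference was 0.74, 1.25 and 0.23, a mean of 0.74 ± 0.51 (SD, n = 3; 1.67-fold; adjusted p = 0.381). It was the only one of the 9 genes at 1.5-fold or more in KO on day 2 (0.429% of all kept genes were that much higher), and the only one at 2-fold or more on day 3 (0.184%). The mean difference ranked 68 of 13042 kept genes, counted from the highest. A dim second probe set, below the filter at intensities from 4.72 to 10.4, was near the lowest value of the arrays (3.82). Its differences were 0.40, 0.39 and 1.14, largest on day 5, so it does not repeat the pattern by day.

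Pdk4 encodes the kinase that shuts off pyruvate dehydrogenase and so spares glucose in a fast. Its intensity was 1418, 906 and 651 in KO and 1156, 594 and 869 in L/L, so KO was above on days 2 and 3 and below on day 5. The difference was 0.29, 0.61 and -0.42, a mean of 0.16 ± 0.53 (SD, n = 3; adjusted p = 0.722). Without day 3 the mean was -0.061, and without day 5 it was 0.45.

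Pck1 encodes cytosolic phosphoenolpyruvate carboxykinase, the entry enzyme of gluconeogenesis and of glycerol-3-phosphate synthesis from pyruvate. Its intensity was 3820, 3050 and 2070 in KO and 3457, 2115 and 2510 in L/L. The order was as for Pdk4, with KO above on days 2 and 3 and below on day 5. The difference was 0.14, 0.53 and -0.28, a mean of 0.13 ± 0.40 (SD, n = 3; adjusted p = 0.715), and -0.067 without day 3. A second bright probe set had 0.46, 0.95 and -0.11, larger on days 2 and 3 and with the same signs.

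Ddit4 encodes REDD1, which restrains the growth kinase complex mTORC1 and is induced by glucocorticoids, ATF4, hypoxia and DNA damage. Its intensity was 736, 935 and 845 in KO and 582, 486 and 524 in L/L. All KO arrays lay above all L/L arrays, which held for 7.48% of all kept genes and for no other of the 9. The difference was 0.34, 0.94 and 0.69, a mean of 0.66 ± 0.30 (SD, n = 3; 1.58-fold; adjusted p = 0.363), and it ranked 96 of 13042.

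**Figure D2:**
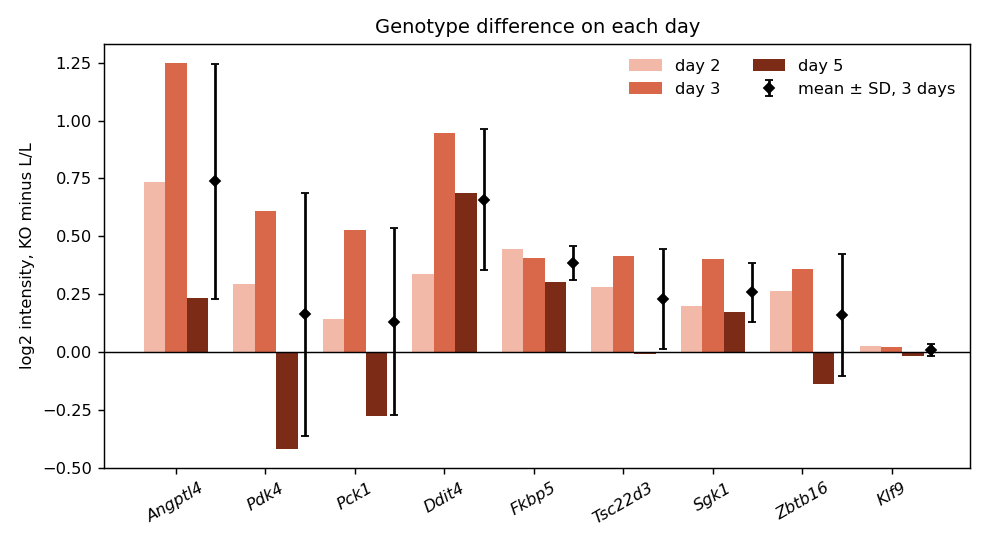
Log2 intensity, KO minus L/L, of each gene on days 2, 3 and 5 (bars, 1 array per genotype and day), with the mean and SD over the 3 days as a diamond with its error bar. The day 3 bar is the tallest for 7 genes, and 5 genes have a day 5 bar below 0, those of Tsc22d3 and Klf9 by under 0.02.

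Taken by size on single days, 3 of the 9 genes were at 1.5-fold or more in KO on day 3 (Angptl4, 2.37-fold; Ddit4, 1.92-fold; Pdk4, 1.52-fold), against 1.1% of all kept genes. On day 5 only Ddit4 was (1.61-fold), against 5.19%. No gene of the 9 was lower by that much on any day, against 0.107%, 0.506% and 3.1% of all kept genes on days 2, 3 and 5. KO was above L/L at any size in 9 of 9 genes on day 2 (55.5% of all kept genes), 9 of 9 on day 3 (47.5%) and 4 of 9 on day 5 (54%). The difference was highest on day 3 in 7 of 9 genes, against 22.4%. At 2-fold or more there was none on day 2 (0.092% of all kept genes higher, 0.0307% lower), Angptl4 alone on day 3 (0.092% lower) and none on day 5 (1.28% higher, 0.882% lower). A single day has 1 array per genotype and no test.

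The question whether the genotype difference followed the day was tested as its slope over days 2, 3 and 5. No slope of the 9 genes passed limma after adjustment over all genes, where 1.23% passed. At an unadjusted p under 0.05 there were 2, Pdk4 (-0.28 per day, SE 0.10, adjusted p = 0.219) and Zbtb16 (-0.15 per day, SE 0.06, adjusted p = 0.255), both lower with day, against 7.87% of all kept genes in that direction and 10.6% in the other. Angptl4 (-0.22), Pck1 (-0.18) and Tsc22d3 (-0.11) also had negative slopes, with adjusted p between 0.373 and 0.39. Ddit4 was the only one of the 9 with a positive slope (0.08, adjusted p = 0.708).

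Within L/L, the levels differed between days by amounts like those between genotypes. On day 3 of L/L against day 2, Pdk4 was lower by 0.96, Angptl4 by 0.90, Pck1 by 0.71 and Tsc22d3 by 0.63 on the log2 scale. These 4 were at 1.5-fold or more lower, against 0.736% of all kept genes (0.882% were as much higher), and the median over the 9 genes was -0.50, against 0.03. Fkbp5 (-0.50), Sgk1 (-0.38), Zbtb16 (-0.28) and Ddit4 (-0.26) were lower by less, and Klf9 stood at 0.05. On day 5 of L/L against day 3, the median was 0.24 and Angptl4 was at 1.5-fold or more higher (1.57-fold), against 0.552% of all kept genes (1.42% were as much lower). On day 5 of L/L against day 2 only Fkbp5 was at 1.5-fold or more lower (-0.67), against 1.77% (1.15% were as much higher). At 2-fold or more none of the 9 differed between days of L/L, where 0.123% were higher and 0.0767% lower on day 3 than on day 2, 0.199% and 0.215% on day 5 than on day 2, and 0.046% and 0.115% on day 5 than on day 3. L/L day 3 was the lowest L/L array for 7 of the 9 genes, against 23.9% of all kept genes, and that same pool is the one KO was set against on day 3. The day 3 difference and the L/L change to day 3 therefore share an array and are not independent.

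Within KO the levels were lowest on day 5 for 7 of the 9 genes, against 40.7% of all kept genes. On day 3 against day 2 only Pdk4 was at 1.5-fold or more lower (-0.65), against 0.445% of all kept genes (0.675% were as much higher), and the median was -0.32. On day 5 against day 2 in KO, 5 genes were (Pdk4, -1.12; Pck1, -0.88; Fkbp5, -0.82; Angptl4, -0.76; Tsc22d3, -0.74), against 3.63% (4.63% were as much higher), with a median of -0.74 against 0.00. Pdk4 alone was at 2-fold or more lower, against 0.82%. Ddit4 (0.20) and Klf9 (0.24) were higher on day 5 of KO. On day 5 against day 3 in KO none reached 1.5-fold, where 2.95% of all kept genes were higher and 2.55% lower by that much. Between days 3 and 5, 7 of the 9 genes were higher on day 5 in L/L and lower on day 5 in KO, against 15.4% of all kept genes.

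**Figure D3:**
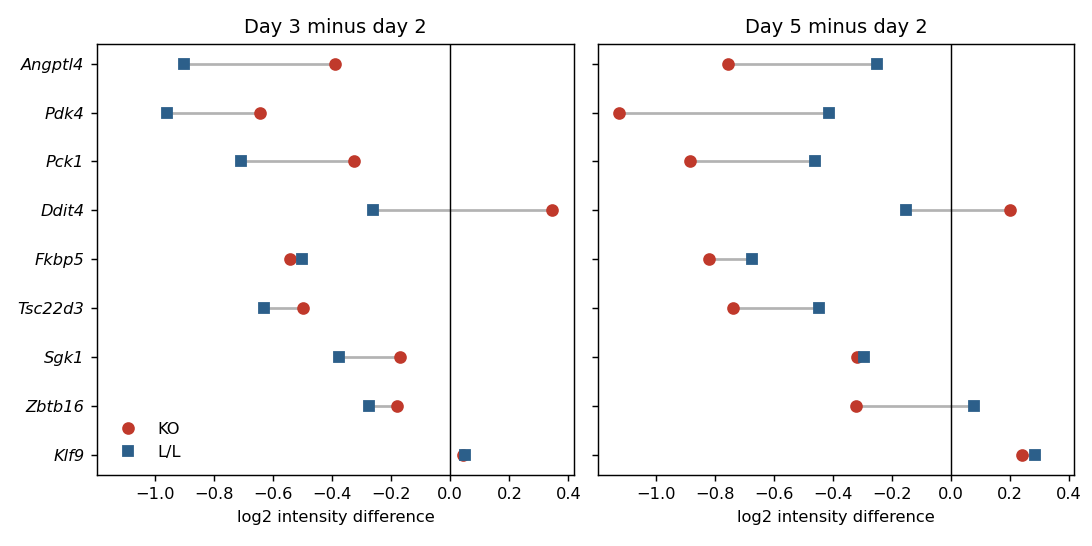
Log2 difference of day 3 (left) and day 5 (right) from day 2 within KO (circles) and within L/L (squares), 1 array per point. On day 3 the L/L square lies farther left than the KO circle for 7 genes, and on day 5 the circle lies farther left for Angptl4, Pdk4, Pck1, Fkbp5, Tsc22d3 and Zbtb16 and, by less than 0.05, Sgk1 and Klf9.

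Over both genotypes together, day 3 was lower than day 2 for 6 of the 9 genes at an unadjusted p under 0.05 (Angptl4, Pdk4, Pck1, Fkbp5, Tsc22d3 and Sgk1), against 3.11% of all kept genes in that direction and 6.66% in the other. None passed limma after adjustment (0% of all kept genes did), with adjusted p between 0.441 and 0.942. Fkbp5 had the smallest, at -0.52 (SE 0.08). On day 5 against day 2, 5 genes were lower at an unadjusted p under 0.05 (Pdk4, Pck1, Fkbp5, Tsc22d3 and Sgk1), against 10.1%, and Klf9 was higher (0.26, SE 0.07), against 11.1%. Fkbp5 was again first (-0.75, SE 0.08, adjusted p = 0.1), and no gene of the 9 or of all kept genes passed (0%). Both day 2 arrays lay above the other 4 arrays for Pdk4, Pck1, Fkbp5 and Tsc22d3, 4 of 9 genes, against 9.91%. On day 5 against day 3 no gene passed limma after adjustment either (0%), with Fkbp5 lower (10.9% of all kept genes were) and Klf9 higher (6.13%) at an unadjusted p under 0.05.

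Among the 9 genes, 16 of 36 pairs had a Pearson correlation of log2 intensity above 0.8, with a median of 0.778, over 6 arrays that share pools, days and processing. None of these 16 pairs held Ddit4 or Klf9. The highest were Pdk4 with Pck1 (0.971) and with Tsc22d3 (0.959). Ddit4 was closest to Angptl4 (0.717) and far from Pdk4 (0.173), while Klf9 was negative with 7 of the others, down to -0.674 with Fkbp5. Of about 3661 kept genes with a range of at least 0.5, those most like each gene by this measure were Ces1d (0.962) and Zfp493 (0.960) for Fkbp5, Sox18 (0.961) and Pdk4 for Tsc22d3, Tenm2 (0.988) and Asns (0.986) for Sgk1, and Dach1 (0.969) and Cdc37l1 (0.956) for Zbtb16. For Angptl4 they were Asns (0.986) and Ccl11 (0.979), for Pdk4 Cyp2c38 (0.975) and Gm9112 (0.971), for Pck1 Acot6 (0.995) and Herpud1 (0.981), for Ddit4 Rgcc (0.987) and Cad (0.981), and for Klf9 2610024D14Rik (0.977) and Sorbs2 (0.976). With 6 arrays, between 9 and 93 genes had a correlation above 0.9 with any one of the 9, so these neighbours are a description only.

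Other glucocorticoid targets had smaller medians than the 9 genes on days 2 and 3 and a higher one on day 5. Of 23 measured of 24 written, 16 were higher on all 3 days and 0 lower on all 3, against 22.1% and 17.4% of all kept genes. Their medians were 0.11, 0.19 and 0.21 by day, and in limma 0 passed after adjustment. At an unadjusted p under 0.05, 10 were higher and 0 lower, against 7.68% and 4.61% of all kept genes. The largest means were those of the cell cycle inhibitor Cdkn1a (0.50), the transcription factor Cebpd (0.49), the anti-inflammatory annexin Anxa1 (0.48, of which 1.52 on day 5) and the iron-binding defence protein Lcn2 (0.46). Within L/L their median from day 2 to day 3 was 0.05, where that of the 9 genes was -0.50. The shares given here for genotype counts apply to the lists that follow as well.

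Of the receptor and hormone genes, 9 of 15 were measured and none passed. At an unadjusted p under 0.05, 2 were higher and 2 lower, against 7.68% and 4.61% of all kept genes. Hsd11b1, the enzyme that regenerates active glucocorticoid inside cells, had intensities of 162, 147 and 151 in KO and 113, 92.6 and 75.6 in L/L. All its KO arrays lay above all its L/L arrays, as for 7.48% of all kept genes (mean difference 0.73, SE 0.11, adjusted p = 0.33). The glucocorticoid receptor Nr3c1 (-0.26), the mineralocorticoid receptor Nr3c2 (-0.25) and Nr5a2 (-0.40), a nuclear receptor that drives intestinal glucocorticoid synthesis, had lower means in KO, with adjusted p between 0.381 and 0.417.

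Lists of the fasting programme around Angptl4, Pdk4 and Pck1 had medians near 0 on days 2 and 3. PPAR alpha and fatty acid genes, 17 of 24 measured, had medians of 0.01, -0.05 and -0.23 by day. Of these, 3 were higher and 3 lower on all 3 days, against 22.1% and 17.4% of all kept genes. None passed limma, with 0 higher and 2 lower at an unadjusted p under 0.05, against 7.68% and 4.61%. Their largest means were those of the oxidation enzyme Acadm (-0.36), the coactivator Ppargc1a (-0.31) and the carnitine transferases Cpt1a and Cpt2 (-0.25 each). Gluconeogenesis genes, 13 of 14 measured, had medians of 0.04, -0.02 and -0.10. Of these, none passed for the genotype over the 3 days, with 0 higher and 1 lower at an unadjusted p under 0.05. G6pc, which releases free glucose, had intensities of 549, 354 and 83.0 in KO and 443, 252 and 171 in L/L. Like Pck1 it was higher in KO on days 2 and 3 and lower on day 5, with differences of 0.31, 0.49 and -1.04. Within L/L it was lower by 0.82 on day 3 than on day 2, the largest such change of its list. Fbp1, the fructose bisphosphatase, was lower in KO on each day (mean -0.55, adjusted p = 0.389).

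Of the genes around pyruvate dehydrogenase, 12 of 13 were measured, with medians of 0.01, -0.14 and -0.49. For the genotype over the 3 days none passed (1 higher and 2 lower at an unadjusted p under 0.05), but the slope with day fell past the threshold for 3: the kinase Pdk1 and the subunits Dlat and Dld, with limma adjusted p = 0.048, 0.0454 and 0.0454. These 3 calls were lost with no filter on dim genes (adjusted p between 0.169 and 0.176) and with either other coding of day. Averaging the probe sets of each gene left Pdk1 (-0.19 per day, adjusted p = 0.0982) and Dld (-0.24, adjusted p = 0.0723) short of the threshold. Dlat still passed there (adjusted p = 0.0389). Once probe sets named _x_, _s_ or _a_ were dropped, Pdk1 did not pass (-0.16 per day, adjusted p = 0.162), while Dlat and Dld did. As reported, the slopes of Pdk1 and Dld were -0.34 and -0.36 per day. On day 5 Pdk1, Dlat and Dld stood at -1.06, -1.01 and -1.01, where Pdk4 was at -0.42. Of 11 lipase and angiopoietin-like genes measured of 14, the endothelial lipase anchor Gpihbp1 was at 0.33 on average, the lipase activator Apoc2 at 0.26 and Lpl, the target of Angptl4, at 0.25. The endothelial lipase Lipg (-0.53) was the 1 gene of that list whose slope passed (adjusted p = 0.0404). That call was lost with no filter on dim genes (adjusted p = 0.169) and with either other coding of day. For the genotype none passed over the 3 days (2 higher and 0 lower at an unadjusted p under 0.05).

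Beside Ddit4, 12 of 13 mTORC1 control genes had medians of 0.04, 0.08 and 0.10. Its relative Ddit4l (0.92) and the stress-induced inhibitor Sesn2 (0.34) had the largest means, and none passed (2 higher and 0 lower at an unadjusted p under 0.05). ATF4 response genes, 14 of 16 measured, had medians of 0.17, 0.22 and 0.21. Of these, 9 were higher and 1 lower on all 3 days, against 22.1% and 17.4% of all kept genes. None was called for the genotype, and 7 were higher and 0 lower at an unadjusted p under 0.05, against 7.68% and 4.61%. Vldlr (0.89), Nupr1 (0.62), Psat1 (0.60) and Phgdh (0.44) led, and the slope of Vldlr passed upwards (0.33 per day, adjusted p = 0.0454). That call was lost with no filter on dim genes (adjusted p = 0.169) and with either other coding of day. It was also lost without probe sets named _x_, _s_ or _a_ (0.18 per day, adjusted p = 0.149). Hypoxia genes had medians of 0.06, 0.05 and 0.06 over 13 of 14, with 1 higher and 1 lower at an unadjusted p under 0.05 and none called for the genotype, while the slope of Pdk1, given above, passed. On day 3 of L/L against day 2 their median was 0.24, led by Egln3 (1.27). Their part in the Ddit4 values was not tested.

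Sodium transport genes downstream of Sgk1, 11 of 13 measured, had medians of 0.01, -0.02 and -0.07, led by the related kinase Sgk2 (0.55, adjusted p = 0.341) and the sodium-proton exchanger Slc9a3 (-0.36). FOXO and insulin genes, 15 of 16, had medians of 0.07, 0.07 and 0.06, with Cited2 (-0.29) and Trib1 (0.28) largest. Klf9 relatives, 11 of 12, had medians of 0.09, -0.05 and 0.16, with Klf2 (0.31) largest. None of these 3 lists had a gene past limma after adjustment, and at an unadjusted p under 0.05 they had 1 higher and 1 lower, 2 higher and 1 lower, and 0 higher and 0 lower.

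**Figure D4:**
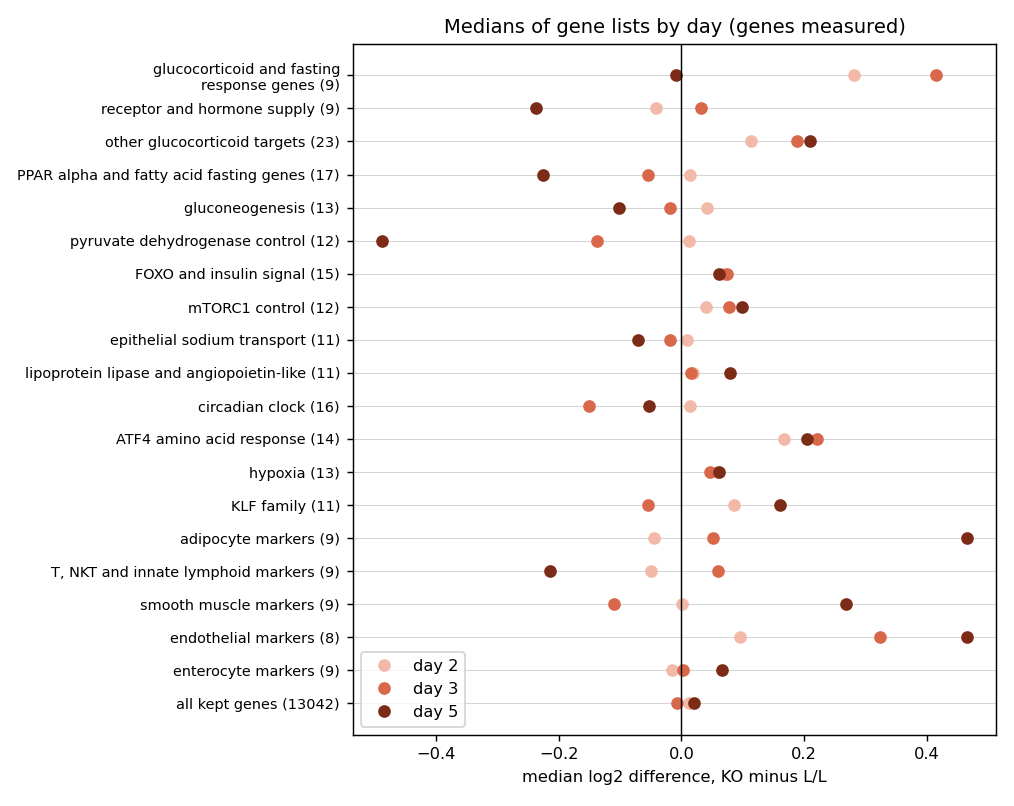
Median log2 difference, KO minus L/L, of the 9 genes and of each other gene list on days 2, 3 and 5 (1 array per genotype and day), with the number of genes measured in brackets. The 9 genes have the highest medians of the plotted lists on days 2 and 3, at 0.28 and 0.41, and lie at -0.01 on day 5, where adipocyte and endothelial markers are highest.

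Several of the 9 genes also follow the hour of day or are made by other cells of the gut wall, so these lists are given beside them. Circadian clock genes, 16 of 18 measured, had medians of 0.01, -0.15 and -0.05 in KO against L/L, with none called and 1 higher and 0 lower at an unadjusted p under 0.05. On day 3 of L/L against day 2 their median was 0.06, with Nr1d1 (0.58), Ciart (0.40) and Bhlhe40 (0.24) largest. Adipocyte markers, 9 of 12 kept, summed to 4611, 4039 and 4489 in KO and 4544, 3750 and 3339 in L/L, so their sum too was lower on day 3 than on day 2 in L/L. The single markers did not all move alike: Car3 (-0.69) and Adipoq (-0.66) were lowest, while Pparg was higher (0.54). Between genotypes their medians were -0.04, 0.05 and 0.46, with 2 higher and 1 lower at an unadjusted p under 0.05. Endothelial markers, 8 of 8 kept, were all higher in KO on all 3 days, against 22.1% of all kept genes. Of these, 0 passed limma after adjustment, while 6 were higher and 0 lower at an unadjusted p under 0.05, against 7.68% and 4.61%. They had medians of 0.09, 0.32 and 0.47 and summed to 1628, 1684 and 1858 in KO and 1504, 1410 and 1254 in L/L. Smooth muscle markers, 9 of 9 kept, summed to 22549, 21842 and 33230 in KO and 22544, 22832 and 28414 in L/L, with 0 higher and 0 lower at an unadjusted p under 0.05. The part of the clock and of these cell types in the values of the 9 genes was not tested.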

How the data were processed

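The authors deposited a table of intensities on a linear scale, from 3.82 to 31146, with 1 value for each probe set of each array. The submitters' processing notes name Partek and RMA without a version. Of 45101 probe sets 64 were controls; 34945 had 1 gene in the platform annotation, 932 several and 9160 were not listed and stay unnamed here. Symbols were updated through gene IDs for 34741 probe sets (GRCm38.p6). Log2 was taken with no offset or further normalization, the brightest probe set of each of 18193 genes was used, and genes with a mean log2 above the 40th percentile of probe sets (5.28) were kept, 13042 in all.

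Genotype with day as a factor (degrees of freedom 2 residual and 3.03 prior), contrasts between days in that fit, and the slope of the genotype difference with day (1 residual, 4.76 prior) were tested with limma 3.58.1 in R 4.3.3, two-sided, adjusted by Benjamini-Hochberg over all kept genes at 0.05. The fits were also run on simulated arrays with known changes. Noise there was independent between arrays and drawn from limma's own fit, so that run cannot show how the tests behave on unreplicated pools. P-values rest only on how far the KO minus L/L difference of pooled arrays varied between days, moderated over all kept genes. For the slope they rest on how far that difference departed from a straight line. The number of arrays limits the precision. Single days, at 1.5-fold, have no test. The genes and lists were chosen with earlier results of these data known. Up to 4 genes of a list were named, those largest in absolute value for what the sentence reports, and for likeness the 2 most correlated genes; G6pc was chosen after their values were seen. Alternatives were the probe set rule, filters, offset, scaling, variance prior, coding of day and leaving out each day.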

Additional observations from a re-analysis of the deposited data

How the results depend on the processing

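No alternative brought any of the 9 genes past limma's adjusted threshold in any of the 5 tests, and the lowest adjusted p for the genotype over the 3 days was 0.132 (Ddit4). The 9 genes' median of the genotype difference over the 3 days kept its sign under every alternative run, while their day 5 median turned to 0.05 with the mean of all probe sets and to 0.02 with cyclic loess. With 1 day left out the mean of Pdk4 ran from -0.061 (without day 3) to 0.45 (without day 5) and that of Pck1 from -0.067 to 0.34 (the same days). Without day 3 and without day 5, Angptl4 stood at 0.48 and 0.99, Tsc22d3 at 0.14 and 0.35, and Zbtb16 at 0.062 and 0.31. Centring arrays on the median turned that of Klf9 to -0.020. The cause was not tested. The day 5 sign of Tsc22d3 and Klf9 turned under cyclic loess. Counts at 1.5-fold that moved by over 1.5 times follow, with the share of all kept genes in either direction in brackets. At 2-fold KO against L/L had 0 for day 2 (0.123%), 1 for day 3 (0.276%) and 0 for day 5 (2.16%). At 2-fold L/L had 0 for day 3 against day 2 (0.199%), for day 5 against day 2 (0.414%) and against day 3 (0.161%). With the mean of all probe sets there were 0 on day 2 (0.486%) and 2 on day 5 (7.04%). In L/L that setting gave 1 for day 3 against day 2 (1.29%). It gave 0 there for day 5 against day 2 (2.37%) and against day 3 (1.52%). Without probe sets named _x_, _s_ or _a_, which leaves 7 genes and drops Angptl4 and Tsc22d3, there were 0 on day 2 (0.56%). L/L then had 2 for day 3 against day 2 (1.73%) and 0 for day 5 against day 3 (2.08%). With median centring (1.77%) and with cyclic loess (1.79%) there were 2 in L/L for day 5 against day 3. Smaller moves were from 3 to 2 for KO against L/L on day 3 (an offset of 32, 0.82%, or no such probe sets, 1.64%). L/L day 3 against day 2 went from 4 to 5 (cyclic loess, 1.62%). KO was above L/L on days 2 and 3 for every gene measured under the 7 alternatives of probe set rule, filter, offset and scaling. The changes of filter leave the values of the 9 genes as they were, so they could not alter this. At an unadjusted p under 0.05 the slope had 2 of the 9 genes, against 18.4% of all kept genes. It had 1 with the mean of all probe sets or with day 2 set against later days. It had 0 with no filter or with days by order. Day 5 against day 3 had 2, against 17%. That contrast had 0 without day 2 and 1 with the mean of all probe sets, median centring or cyclic loess. Shares of all kept genes at that p were not taken for these alternatives, so their counts have nothing to be set against. Over all kept genes the slope calls, 160 as reported, were 0 with no filter or with day 2 set against later days, 63 with days by order, 275 with the stricter filter, 549 with the offset and 531 with a variance trend. The slope calls of Pdk1, Dlat, Dld, Lipg and Vldlr held in 6 of 11, 8 of 11, 7 of 11, 6 of 9 and 5 of 9 alternatives. Genotype calls, 3 as reported, ran from 0 (without day 3) to 6 (linear day). A test of the slope without a day has no residual degree of freedom and was not run.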
